A study of Mus musculus with 9 samples.

Results

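Isolated RNA sites of Polycomb repressive complex 2 (PRC2) were described here: short stretches of RNA that gave a peak in some but not all libraries and stood alone on their strand. Peaks of 4 libraries that overlapped on the same strand by at least 1 bp were merged into 44277 sites. A site was taken when exactly 2 or 3 libraries had a peak in it and no other merged site of that strand lay within 10 kb of either edge. The 641 sites that passed comprise 508 with peaks in 2 libraries and 133 with peaks in 3. They were chosen by the number of libraries, the overlap and the distance to neighbours, and these values are given as a description.

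The data came from dCLIP, in which protein and RNA are crosslinked by UV light in living cells and the tagged protein is captured on streptavidin beads. Cells were female EL 16.7 mouse embryonic stem cells of the cross CAST/Ei x 129/Sv/Jae, differentiated for 7 days, all with stable expression of the biotin ligase BirA. The EZH2 group held clones 4A (replicate 1) and 5A (replicate 2) with Avi-GFP-mEzh2, and the SUZ12 group held clones 8E (replicate 1) and 8H (replicate 2) with Avi-GFP-mSuz12. Each library is thus 1 stable clone with an added tagged protein, and the promoter that drives the tag is not given in the labels. A mock library from empty-vector clone 2H and 4 PRO-seq libraries of the series were not analysed here, so no site was set against an untagged control. For EZH2, 10468 peaks were listed in replicate 1 and 13267 in replicate 2, and for SUZ12 11580 and 13951. These are bulk samples, so fewer cells with an RNA and less RNA per cell cannot be told apart. Cell identity was not checked against marker genes, since no gene annotation was used. Read depth is unknown from such lists, and all positions are in mm9, counted from 1.

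PRC2 places methyl groups on lysine 27 of histone H3 and so helps to keep developmental genes silent. EZH2 carries the methyltransferase activity, and SUZ12 is a core subunit that holds the complex together. The complex binds many RNAs, favours stretches rich in G, and in female cells is known for its part in X chromosome inactivation. Peaks can line up along a long transcript or occur singly, and the sites below are of the second kind within the distance that the rule sets. No annotation or genome sequence of mm9 was used, so the genes and sequences at these sites are not analysed here. Whether a site marks a short RNA or the only peak of a long transcript was not tested.

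Isolation did not follow the number of libraries in a simple order. Of the 2637 sites in 2 libraries, 19.3% were isolated (95% Wilson interval 17.8 to 20.8%), and of the 539 sites in 3 libraries 24.7% (21.2 to 28.5%). Single-library sites were isolated in 29.0% of 40699 cases (28.6 to 29.5%). Sites in all 4 libraries were isolated in 48.3% of 402 cases (43.4 to 53.1%), the highest of these shares. Intervals here and below cover counting error only. The median distance to the nearest site of the same strand was 36.1 kb among the 641 isolated shared sites, with quartiles of 15.976 and 138 kb. There were 213 sites (33.2%) at 10 to 20 kb, 188 (29.3%) beyond 100 kb and 19 beyond 1 Mb. Sites in 3 libraries lay farther from their neighbours, at a median of 55.4 kb against 31.3 kb for sites in 2.

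The limit of 10 kb cut through a continuum. Just outside it lay sites at chr4:126113632-126113919 and chr4:131926696-131926924, both minus strand, and at chr6:142342216-142342674, plus strand. Their distances were 10.043, 10.046 and 10.066 kb. Just inside it were the minus-strand sites chr6:85302842-85303102, chr4:131481151-131481340 and chr8:126088111-126088356, at 9.987, 9.980 and 9.973 kb. At the other end, chrX:125082852-125083043 (minus) had no neighbour on its strand for 5343 kb. It was followed by chrX:118449384-118449634 (minus), with 4084 kb, and chr14:90297422-90297872 (minus), with 2760 kb. When only sites found in 2 or more libraries counted as neighbours, 2313 of the 3176 sites in 2 or 3 libraries were isolated in place of 641. Many sites that the rule left out thus had only single-library sites within 10 kb.

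**Figure D1:**
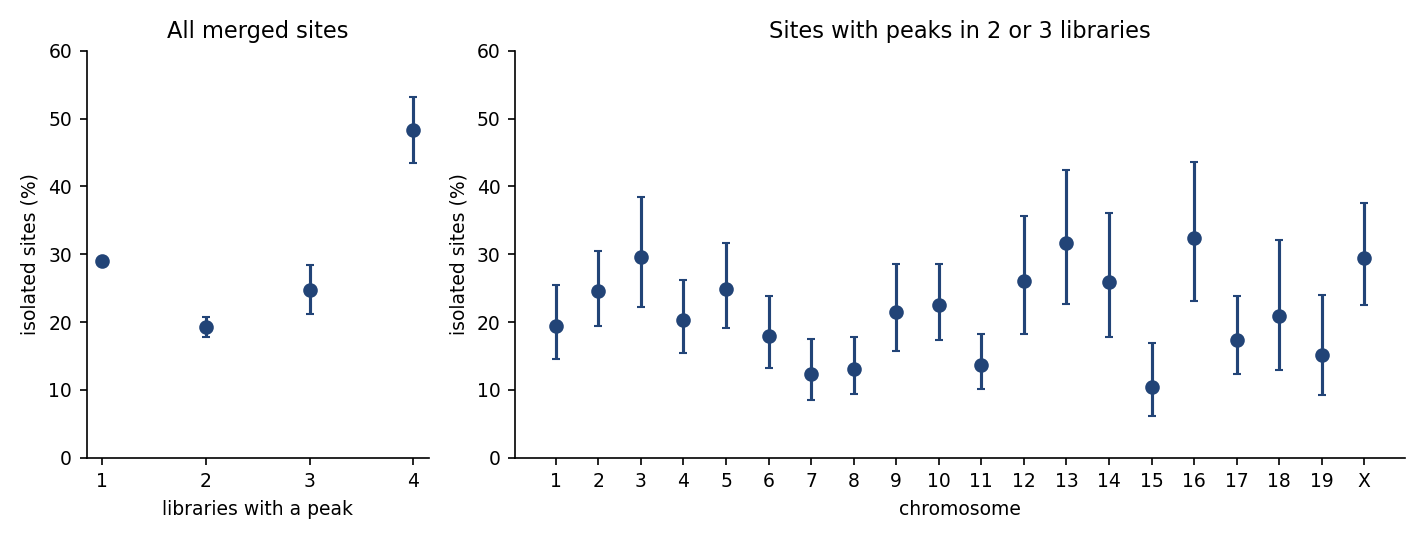
Share of merged sites with no other site of the same strand within 10 kb, by the number of libraries with a peak (left) and, for sites in 2 or 3 libraries, by chromosome (right). Points are shares in percent and bars 95% Wilson intervals; sites in 4 libraries reach 48.3%, and chromosomes range from 10.4% on 15 to 32.5% on 16.

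The sites were compact. Their median length was 213 bp (quartiles 190 and 253 bp), 534 of the 641 (83.3%) were at most 300 bp long and 105 had 300 to 700 bp. None held more than 1 peak of a library, whereas 19 of the 2535 shared sites that were not isolated did. In 636 of the 641, all peaks had at least 1 base in common, with a median common core of 116.5 bp (quartiles 93 and 145 bp). The rule fixes a common base for the 508 sites in 2 libraries, so only the 133 sites in 3 libraries could lack one. The core made up at least 50% of the merged length in 400 sites (62.4%) and was under 20 bp in 26. The other 5, all in 3 libraries, were chains in which the outer peaks did not meet: chr1:97395110-97395703, chr9:117949822-117950282 and chr18:35278888-35279536 of the plus strand, and chr5:138092659-138093051 and chrX:132748534-132749035 of the minus strand. These 5 were named after their values were seen.

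The 2 longest sites stood apart from the rest in length. The plus-strand site chr7:52410332-52420000 had a peak of 9669 bp in EZH2 replicate 1 and of 145 bp in SUZ12 replicate 1. The plus-strand site chr6:136555711-136560000 had peaks of 4290 bp in EZH2 replicate 2 and 152 bp in SUZ12 replicate 2. Both end on a multiple of 10 kb, and in both the second library had an ordinary narrow peak within the wide one. The third, chr6:72907386-72908046 (minus), had 661 bp, with a peak of 191 bp in EZH2 replicate 1 and of 636 bp in EZH2 replicate 2. Its length was close to that of the next site, 655 bp.

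Which libraries shared a site was not part of the rule, and it was compared between the proteins. The EZH2 clones shared 67 of the 508 sites in 2 libraries, and the SUZ12 clones 94, a sum of 161 within proteins. The highest count, 132, belonged to EZH2 replicate 2 with SUZ12 replicate 2, the pair with the longest lists. The lowest, 49, belonged to EZH2 replicate 2 with SUZ12 replicate 1, although EZH2 replicate 1 with SUZ12 replicate 1, from shorter lists, shared 70. EZH2 replicate 1 and SUZ12 replicate 2 shared 96. Both pairs of different proteins with the same replicate number summed to 202, and both with different numbers to 145. The count within proteins was 12.5 sites below the mean of the other pairings (exact permutation test over 3 splits, two-sided p = 1, smallest possible 0.333). With a library left out, the 1 pair of the same protein that remains was 29 sites above the mean of the other pairs without EZH2 replicate 2 and 13 above it without SUZ12 replicate 2. It was below that mean, by −17 and −62 sites, without EZH2 replicate 1 and without SUZ12 replicate 1.

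Counts per 1e+08 possible peak pairs, which allow for the list lengths, put the pairs in the same order. They were 71.3 for EZH2 replicate 2 with SUZ12 replicate 2, 65.7 for EZH2 replicate 1 with SUZ12 replicate 2, and 58.2 within SUZ12. They were 57.7 for EZH2 replicate 1 with SUZ12 replicate 1, 48.2 within EZH2 and 31.9 for EZH2 replicate 2 with SUZ12 replicate 1. Of the 133 sites in 3 libraries, 45 lacked EZH2 replicate 1 and 41 lacked SUZ12 replicate 1, the libraries with the shortest lists. Another 26 lacked SUZ12 replicate 2 and 21 lacked EZH2 replicate 2. Peaks at isolated shared sites made up 3.07% and 2.71% of the EZH2 lists, a mean of 2.89 ± 0.250% (SD, n = 2). In the SUZ12 lists the shares were 2.63% and 3.08%, a mean of 2.85 ± 0.312% (SD, n = 2), so the proteins differed by less than the spread between clones.

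**Figure D2:**
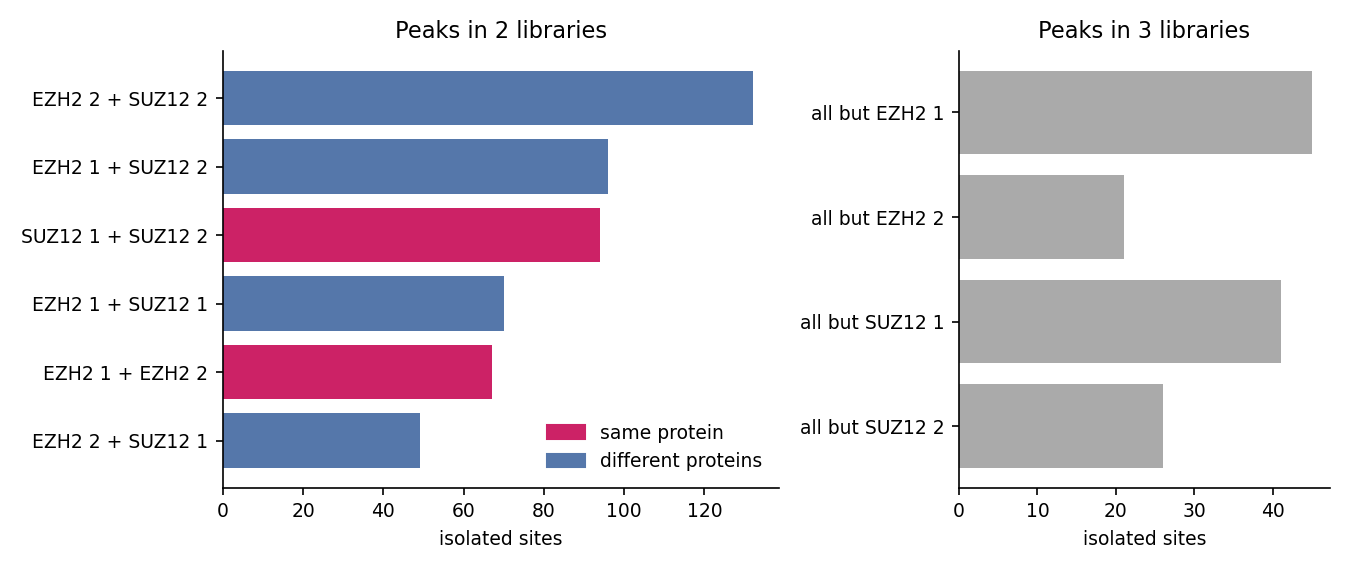
Number of isolated sites for each pair of libraries (left, sites in 2 libraries) and for each set of 3 libraries (right, named by the library without a peak). Bars are counts and the digit after a protein is its replicate; the pair of EZH2 and SUZ12 replicates 2 leads with 132 sites and EZH2 replicate 2 with SUZ12 replicate 1 has 49.

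Peaks at isolated shared sites were spread over the ranks of their lists, and a few sites were strong in each library that had them. The false discovery rate (FDR) is the authors' own value for a peak and is used to describe and rank peaks. The weakest FDR of a site, the highest over its libraries, had a median of 0.00401. Every FDR was below 0.001 in 141 sites (22.0%), below 1e-04 in 42 (6.55%) and below 1e-05 in 13 (2.03%). At the 2535 shared sites that were not isolated the shares were 32.6%, 10.8% and 3.51%. Over all merged sites, most of them in 1 library only, the shares were 36.2%, 13.4% and 4.90%. Within its own list, a peak at an isolated shared site had a median rank between 42.4% and 49.1% from the best. By library, 14.6% and 15.0% of these peaks in EZH2 replicates 1 and 2 were among the best 10% of their list. In SUZ12 replicates 1 and 2 the shares were 9.84% and 15.2%. In the weaker 50% lay 46.4% and 48.9% of the EZH2 peaks and 49.5% and 45.0% of the SUZ12 peaks. In 160 sites every peak lay in the weaker 50% of its list, in 154 (24.0%) at least 1 peak was among the best 10%, and in 16 every peak was. These site counts depend on having 2 or 3 peaks per site and were not compared with those of other sites. Libraries often differed at the same site: the weakest and strongest FDR were at least 1000-fold apart in 62 sites and under 10-fold apart in 357 (55.7%).

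The p-values behind these FDRs came in steps. Between 93.1% and 95.3% of the peaks at isolated shared sites had a p equal to 0.5 raised to a whole power, within 0.001 on the log2 scale. The lowest power was 7 in every library, and the median power was 10 in 3 libraries and 11 in SUZ12 replicate 2. At the lowest step lay 15.3% and 15.0% of the peaks in EZH2 replicates 1 and 2, and 20.3% and 12.8% in SUZ12 replicates 1 and 2. Many peaks of a list therefore shared the same p.

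The site in 3 libraries with the lowest weakest FDR was chr18:47271896-47272102 (plus), a stretch of 207 bp. Its FDR was 7.64e-08 and 8.04e-10 in EZH2 replicates 1 and 2 and 8.08e-08 in SUZ12 replicate 2. No other site of its strand lay within 93.6 kb, and SUZ12 replicate 1 had no peak there. Next came chr3:61962920-61963367 (plus), with 5.31e-07 in EZH2 replicate 2 and 7.64e-07 and 2.09e-07 in SUZ12 replicates 1 and 2. Its 3 peaks were 434, 353 and 375 bp wide with a common core of 348 bp, so the peaks of both proteins covered nearly the same stretch. The third, chr12:71031878-71032162 (plus), had 1.86e-06 and 6.44e-07 in EZH2 and 2.03e-06 in SUZ12 replicate 2. The libraries were close to each other at this site, and its nearest neighbour on the strand was 190 kb away.

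At other sites in 3 libraries the FDR differed between libraries by varying amounts. At chr8:124431110-124431380 (minus) it was 8.03e-06 and 1.75e-05 in EZH2 and 7.38e-07 in SUZ12 replicate 2. At chrX:11842188-11842420 (plus) it was 6.73e-08 in EZH2 replicate 2 and 2.64e-05 and 8.84e-06 in SUZ12 replicates 1 and 2. The widest gap among the 12 leading sites was at chr13:85266348-85267002 (plus), with 3.59e-09 in EZH2 replicate 2, 1.34e-04 in SUZ12 replicate 1 and 6.14e-12 in SUZ12 replicate 2. There the EZH2 peak was 403 bp wide, that of SUZ12 replicate 1 was 144 bp and that of SUZ12 replicate 2 was 624 bp. The remaining 6 of the 12 lay on chromosomes 4 (2 sites), 9, 12, 15 and 17, with a weakest FDR of 2.91e-05 to 1.24e-04. EZH2 replicate 2 had a peak in all 12, SUZ12 replicate 2 in 10, SUZ12 replicate 1 in 8 and EZH2 replicate 1 in 6. Over all 133 sites in 3 libraries the counts were 112, 107, 92 and 88, in the same order of libraries.

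Among sites in 2 libraries, the strongest combined both proteins. It was chr15:81977712-81978031 (plus), with an FDR of 1.08e-08 in EZH2 replicate 1 and 2.03e-11 in SUZ12 replicate 2. The next 3 were found in both SUZ12 clones and in no EZH2 clone. At chr5:123516411-123516709 (plus) the SUZ12 values were 4.32e-08 and 2.30e-08, with summits 5 bp apart. At chr18:70631973-70632305 (minus) they were 1.11e-07 and 4.55e-08, and at chr11:30853943-30854380 (minus) 5.47e-10 and 5.33e-07. None of the 12 leading sites in 2 libraries belonged to the EZH2 pair alone. Of all 508 sites in 2 libraries, 67 (13.2%) belonged to the EZH2 pair and 94 (18.5%) to the SUZ12 pair. SUZ12 replicate 2 had a peak in 11 of the 12, SUZ12 replicate 1 in 6, EZH2 replicate 2 in 5 and EZH2 replicate 1 in 2. Over all 508 sites in 2 libraries the counts were 322, 213, 248 and 233 for these libraries. Whether the order at the 12 differs from that at all 508 was not tested.

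The other leading sites in 2 libraries reached a weakest FDR of at most 2.50e-05. At chrX:39264943-39265129 (minus), EZH2 replicate 1 had 2.24e-06 and SUZ12 replicate 2 had 4.97e-06, with summits 3 bp apart. At chr5:28113426-28113640 (minus), EZH2 replicate 2 had 7.63e-06 and SUZ12 replicate 2 had 8.13e-07, at the same summit. The least even was chr8:81033292-81033633 (plus), with 9.88e-06 in EZH2 replicate 2 and 1.88e-12 in SUZ12 replicate 2. It lay 10.290 kb from its neighbour, close to the limit of the rule, and 3.376 kb from a site on the opposite strand.

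**Figure D3:**
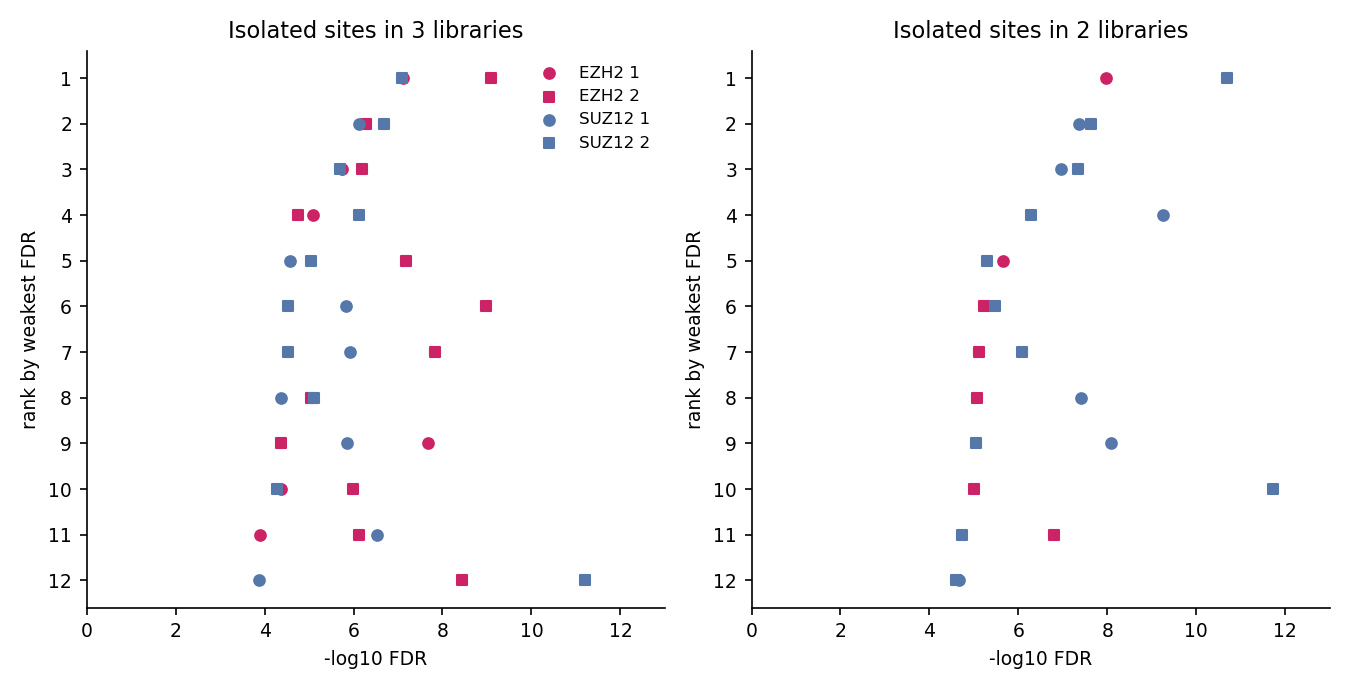
FDR of the 12 isolated sites in 3 libraries (left) and the 12 in 2 libraries (right) with the lowest weakest FDR, as −log10 on the x axis and in rank order on the y axis. Each point is the peak of 1 library. Circles are replicate 1 and squares replicate 2, and the digit in the key is the replicate. EZH2 replicate 2 appears in all 12 sites on the left, and in 112 of all 133 isolated sites in 3 libraries. SUZ12 replicate 2 appears in 11 on the right, and in 322 of all 508 isolated sites in 2 libraries.

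Isolated shared sites were then set against the 2535 sites that also had peaks in 2 or 3 libraries but had a neighbour within 10 kb. Libraries share the sites of both sets, so the 4 libraries are not independent here or in the per-library comparisons below. The isolated ones were weaker in every library. A peak is listed only past the caller's threshold, so these values describe listed peaks. Their median −log10 FDR was 2.77 and 2.88 in EZH2 replicates 1 and 2 and 2.70 and 3.14 in SUZ12, against 3.17, 3.24, 3.13 and 3.41 in the same order at the others. The mean difference was −0.365 ± 0.072 (SD over 4 libraries), lower in 4 of 4 (exact permutation of signs, two-sided p = 0.125, the smallest possible; 0.2 after adjustment over 8 tests). The gap was seen at matched numbers of libraries too. Among sites in 2 libraries the median weakest FDR was 0.00470 when isolated and 0.00224 otherwise, and among sites in 3 it was 0.00332 and 0.00281. With a library left out and sites in exactly 2 of the 3 others taken, the difference was −0.367 to −0.240. When sites in all 3 others were taken as well, which lets in sites found in all 4 libraries, it was −0.0552 to 0.0463.

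Peak widths were close to those of other shared peaks. In EZH2 the medians were 187 and 194.5 bp, and in SUZ12 they were 160 and 148 bp. At the other shared sites they were 183, 190, 159 and 140 bp in the same order. The mean difference was 4.38 ± 2.87 bp (SD over 4 libraries), wider in 4 of 4 (exact permutation of signs, two-sided p = 0.125, the smallest possible; 0.2 after adjustment). Between the proteins the gap was larger: EZH2 peaks at isolated sites had a median width of 190.75 ± 5.30 bp (SD, n = 2) and SUZ12 peaks 154 ± 8.49 bp. The difference of 36.8 bp exceeded the spread of the clones, which did not overlap (exact permutation over clones, two-sided p = 0.333, the smallest possible; 0.381 after adjustment). The other shared sites had a similar gap, 186.5 ± 4.95 bp against 149.5 ± 13.4 bp (SD, n = 2 each), and whether the gaps differ was not tested.

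**Figure D4:**
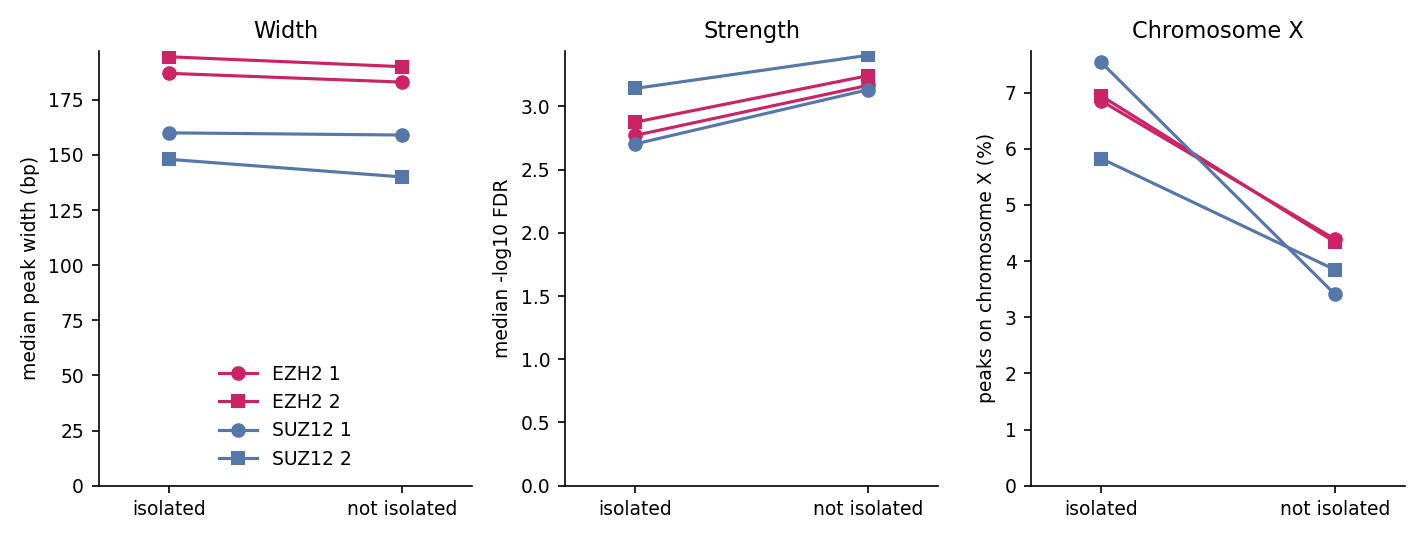
Median peak width in bp, median −log10 FDR and share of peaks on chromosome X in percent, for peaks at isolated and not isolated sites in 2 or 3 libraries. Each line is 1 library (pink, EZH2; blue, SUZ12; circle, replicate 1; square, replicate 2); all 4 lines rise in strength and fall on chromosome X from isolated to not isolated sites.

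Distances between summits were compared between libraries at isolated shared sites. Peaks of a site overlap by the rule, so peak width limits how far apart the summits can lie. Median widths were 187 and 194.5 bp in EZH2 replicates 1 and 2, and 160 and 148 bp in SUZ12 replicates 1 and 2. Whether width accounts for the distances was not tested. In 298 sites (46.5%) all summits lay within 50 bp of each other and in 73 (11.4%) within 10 bp. The median distance was 30.5 bp between the SUZ12 clones, over 160 sites, and 51 bp between the EZH2 clones, over 134. Between proteins it was 35 bp for EZH2 replicate 1 with SUZ12 replicate 1 (117 sites) and 47 bp with SUZ12 replicate 2 (158). For EZH2 replicate 2 it was 51 bp with SUZ12 replicate 1 (120) and 55 bp with SUZ12 replicate 2 (218). Within proteins minus the other pairings, the mean of the medians was −6.25 bp (exact permutation test over 3 splits, two-sided p = 0.333, the smallest possible; 0.381 after adjustment). The SUZ12 clones were the closest of the 6 pairs, while the EZH2 clones were closer than 1 of the 4 pairs of different proteins. Without SUZ12 replicate 2 the difference was 2 bp in the other direction.

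Isolated shared sites were spread over all autosomes and X, and none lay on Y. Chromosome 2 held 56, chromosome 10 held 48, chromosome 5 held 45 and chromosome 4 held 43, with 329 of the 641 on the plus strand. The share of shared sites that were isolated ran from 10.4% of 125 on chromosome 15 (Wilson interval 6.18 to 17.0%) to 32.5% of 77 on chromosome 16 (23.1 to 43.5%). Chromosomes 7, 8 and 11 also had low shares of 12.4%, 13.1% and 13.7%. These chromosomes had the shortest spacing of sites. The median distance from any site to its nearest on the strand was 3189, 2717.5 and 2994 bp there. On chromosomes 3, 13 and 16, with shares of 29.7%, 31.7% and 32.5%, it was 5072, 5815.5 and 5027 bp. Shares did not follow the spacing throughout, and the relation was not tested. The median distance was 3407.5 bp on chromosome 10 and 3407 bp on chromosome 15, where 22.5% and 10.4% of shared sites were isolated. It was 5833.5 bp on chromosome 18 and 5815.5 bp on chromosome 13, with 20.9% and 31.7% isolated.

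Chromosome X, the chromosome that PRC2 helps to silence in female cells, held 41 isolated shared sites, 6.40% of the 641 (Wilson interval 4.75 to 8.56%). It held 3.57% of all merged sites, 4.29% of isolated sites in 1 library and 5.47% of sites in 4 libraries (3.64 to 8.15%). Of its 139 shared sites, 29.5% were isolated (22.5 to 37.5%), and chromosomes 3, 13 and 16 had shares of 29.7%, 31.7% and 32.5%. Single-library sites on X were isolated in 35.8% of cases, against 29.0% over all chromosomes. The 41 isolated shared sites on X were far from their neighbours, at a median of 137 kb. Of these, 21 were on the plus strand, and 13 had peaks in 3 libraries. Of the peaks at isolated sites, 6.85% and 6.94% lay on X in EZH2 and 7.54% and 5.83% in SUZ12, against 4.39%, 4.34%, 3.41% and 3.85% at other shared sites. Libraries share these sites, so the values of the 4 libraries are not independent. The mean difference was 2.79 ± 0.929 percentage points (SD over 4 libraries), higher in 4 of 4 (exact permutation of signs, two-sided p = 0.125, the smallest possible; 0.2 after adjustment). It was 0.830 points with an edge distance of 5 kb, 0.862 among peaks in the better 50% of their list by FDR, and −0.436 when only shared sites counted as neighbours. Without SUZ12 replicate 1 it was 0.712 points when sites in exactly 2 of the 3 others were taken. The proteins did not differ beyond their clones, at 6.90 ± 0.064% and 6.68 ± 1.21% (SD, n = 2).

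The opposite strand was not read by the rule. There were 562 sites (87.7%) with no site of either strand within 10 kb, and 79 (12.3%) with one on the opposite strand. The latter share was 14.4% at the 2535 other shared sites, 15.7% at sites in 4 libraries and 10.5% over all 44277 merged sites. Overlap with an opposite-strand site was seen in 0.671% of the other shared sites, 2.24% of sites in 4 libraries and 0.257% of all merged sites. Among the 641 it was seen in 2 (0.312%). These were chr10:24315450-24315818 and chr13:85266348-85267002, both of the plus strand. By library, 0.312% and 0.278% of the EZH2 peaks at isolated sites were overlapped in this way and 0.328% and 0.466% of the SUZ12 peaks, against 0.616%, 0.868%, 0.410% and 0.888% at other shared sites. The share was lower in 4 of 4 libraries (exact permutation of signs, two-sided p = 0.125, the smallest possible; 0.2 after adjustment), but with a library left out the direction turned in 6 of 8 settings. Another 19 had their nearest opposite-strand site within 1 kb, 2.96% of the 641 against 1.14% of the 2535 other shared sites and 1.02% of all merged sites.

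These close neighbours lay mostly on 1 side. In 17 of the 19 the opposite-strand site was upstream, toward the 5′ side of the isolated site, so that both RNAs point away from each other (89.5%, Wilson interval 68.6 to 97.1%). Only 2 were downstream. Over all merged sites, 314 of 452 such neighbours were upstream (69.5%, 65.1 to 73.5%). All 19 neighbours of isolated shared sites were single-library sites, as were 40699 of all 44277 merged sites, and they were spread over 14 chromosomes. Of the 19, 11 came from a library that also had the isolated site. By the rule, an isolated shared site has peaks in 2 or 3 of the 4 libraries. Beyond 1 kb the sides were even: 1 upstream and 3 downstream at 1 to 2 kb, 15 and 17 at 2 to 5 kb, and 11 and 11 at 5 to 10 kb.

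By library, 8 upstream neighbours stood against 1 downstream in EZH2 replicate 1, 11 against 1 in EZH2 replicate 2, 8 against 2 in SUZ12 replicate 1 and 10 against 1 in SUZ12 replicate 2. Upstream exceeded downstream in 4 of 4 libraries (exact permutation of signs, two-sided p = 0.125, the smallest possible; 0.2 after adjustment), but libraries share these sites and are not independent here. The comparison was chosen after its values were seen. An upstream excess was not limited to these sites: it was 125 of 166 (75.3%, 68.2 to 81.2%) at isolated sites in 1 library. At sites in 1 library that were not isolated it was 150 of 230 (65.2%, 58.9 to 71.1%). It was 18 of 29 (62.1%, 44.0 to 77.3%) at shared sites that were not isolated and 4 of 8 at sites in 4 libraries. The difference between these classes was not tested. The excess of 15 sites fell to 3 without SUZ12 replicate 2 and to 6 among peaks in the better 50% of their list.

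The closest of the 17 upstream pairs are given as examples, chosen after their values were seen. At chr10:77776888-77777126 (plus), a site of EZH2 replicate 2 and SUZ12 replicate 2 had a SUZ12 replicate 1 site at chr10:77776707-77776843 (minus), 44 bp upstream. For chr6:48474608-48475074 (minus), the upstream site lay 96 bp away at chr6:48475171-48475277 (plus). At chr17:17482326-17482636 (minus), a site of both EZH2 clones had a SUZ12 replicate 2 site 156 bp upstream. The median distance of the 17 was 477 bp. Among the 12 leading sites in 3 libraries, chr15:8394078-8394564 (minus) was of this kind, with a neighbour 715 bp upstream.

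**Figure D5:**
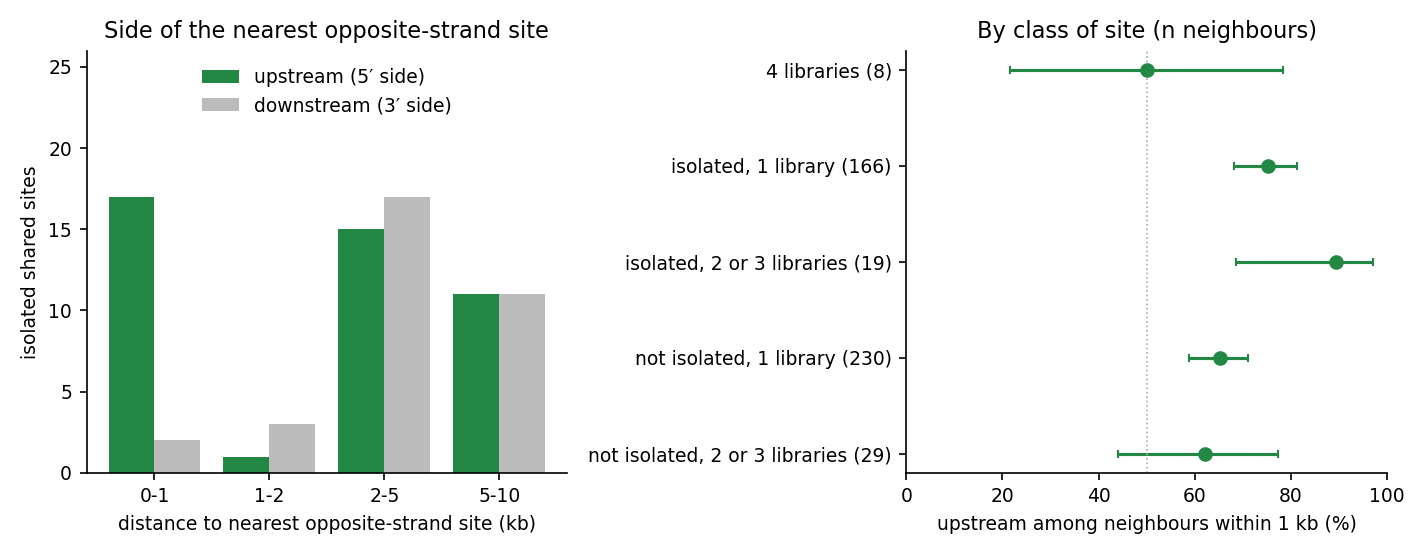
Left, number of isolated shared sites by the distance in kb and side of their nearest opposite-strand site (bins of unequal width, overlaps left out). Right, share of upstream neighbours in percent among neighbours within 1 kb, by class of site, with 95% Wilson intervals and the number of neighbours in brackets; 17 of 19 are upstream at isolated shared sites, and the dotted line marks 50%.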

How the data were processed

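The 8 deposited peak lists, 1 per dCLIP library and strand, gave each peak's position, summit, p-value and FDR. The FDR, a p-value adjusted by the authors' peak caller, was deposited per peak. Peak names start with "ranger" and hold the p-value, per the deposited files. Its version, settings and control are not given in the sources used here. Of upstream tools, bedtools 2.17.0, Trim Galore 0.3.3, SAMtools 0.1.18 and TopHat2 2.0.8, with mm9 as the build, stand in the submitters' processing notes. Each library has its own lists.

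Peaks were merged by chains of overlap, so peaks of a site need not all meet. Library is the replicate. A shared site counts in each library that has a peak there, so values per library are not independent where they rest on the same sites. Tests were exact permutations over libraries: 3 splits into pairs, 6 assignments to proteins, or signs of 4 differences, with Benjamini-Hochberg adjustment over 8 tests, among them that of upstream against downstream neighbours, which was added after its values were seen. None could reach 0.05. No count model was used, since numbers of peaks are not reads. Shares have 95% Wilson intervals.

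Named sites are the 12 in 3 libraries and the 12 in 2 with the lowest weakest FDR, the 3 nearest to 10 kb on each side, the 3 most distant and the 3 longest. Members, lists and rules were chosen with earlier results of these data known. The planned gene lists, gene locations and motifs were not run, as the reference tables were of GRCm38. The merging and choosing steps were tested on simulated sites. Python 3.11.15, NumPy 2.4.6, pandas 2.3.3, SciPy 1.17.1 and Matplotlib 3.10.9 were used.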

Additional observations from a re-analysis of the deposited data

How the results depend on the processing

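The number of isolated shared sites was 999 with an edge distance of 5 kb and 2313 when only shared sites counted as neighbours, and 428 to 638 in the other 6 settings that kept all libraries. Among these settings the count within proteins turned positive at 20 kb, by 1 site, and the chromosome X difference turned to −0.436 percentage points when only shared sites counted; the cause was not tested. The other 6 compared differences kept their direction in every setting that kept all libraries and gave a value. Widths were not compared for peaks set to 100 bp, nor opposite-strand neighbours for isolation on both strands.

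With a library left out, taking sites in 2 or all 3 of the others, or in exactly 2 (added after the data were seen), there were 400 to 744 sites, with 400 without SUZ12 replicate 2. The ranges were −62 to 29 sites for the count within proteins, −0.367 to 0.0463 for −log10 FDR (−0.0552 without EZH2 replicate 2), −0.660 to 0.801 points for opposite-strand overlap (main value −0.350; 0.0377 without SUZ12 replicate 1 and 0.424 without SUZ12 replicate 2 with exactly 2 of the others, and 0.0838 without EZH2 replicate 1), −24.5 to 3.5 bp for summits, 25 to 43.5 bp for EZH2 minus SUZ12 width, 4.5 to 14.7 bp for width against other shared peaks, 0.712 to 3.75 points for X and 2 to 13 sites for the upstream excess. The overlap on the opposite strand rests on 2 isolated sites.

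The replicate numbers are not shown to pair the clones: deviations of same-numbered libraries correlated at 0.117 over 846 windows of 1 Mb. With the replicate block the width difference was 36.8 bp (exact permutation, two-sided p = 0.5, the smallest possible). Of the 24 leading sites, 14 remained at 20 kb and 11 to 22 with a library left out. Depth is unknown, so the lack of a peak in a library does not show that the RNA was unbound there.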

Other observations

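By the rule, isolated shared sites of the same strand lie more than 10 kb apart. The median distance from one to the next on the same strand was 2727 kb, 46 of the 641 had another within 100 kb and 10 within 20 kb. These values were not compared with those of other sites. Of the peaks at isolated shared sites, 1 in SUZ12 replicate 1 carried the caller's mark for a failed FDR in its name, among 22 so marked in all lists.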
